A study of Homo sapiens with 2 samples.

Results

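Splicing factor genes were followed in C4-2B ENZR, a human prostate cancer cell line named for its resistance to the prostate cancer drug enzalutamide and kept in 20 µM of the drug in both groups. The members were the genes whose symbols begin with SRSF, HNRNP, SF3A, SF3B, SNRP, U2AF or PRPF, as SR proteins, hnRNP proteins, subunits of the U2 particle, core snRNP polypeptides, U2 auxiliary factors and pre-mRNA processing factors. Of 26447 gene symbols in the tables, 81 had such a prefix, and 75 were kept after 1 antisense gene and 5 pseudogenes were left out. The shNRP2 library came from cells stably infected with a lentivirus whose hairpin RNA targets the coding region of NRP2, a co-receptor for semaphorins and VEGF ligands. The shControl library came from cells with a non-targeting hairpin, and both cell populations had been through antibiotic selection. Each group holds 1 library, so every difference below describes these 2 libraries and has no replicate check. No p-value is given for a gene or for the conditions, and a test on reads, given further on, covers counting error only. The sources used here do not say whether the selected cells were a clone or a mixed population.

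Introns are removed by the spliceosome, which assembles on each intron from small nuclear ribonucleoprotein particles (snRNPs) and many accessory proteins. SR proteins bind exonic enhancers and favour the use of nearby splice sites, and hnRNP proteins bind exons and introns and often have the opposite effect. In prostate cancer, as in other tumours, these factors are studied because a shift in their balance can change which exons are kept. Values per gene do not show which splice forms a gene makes, so no variant was measured here.

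The shNRP2 library held 22992304 reads on genes and the shControl library 21052178. Values are the authors' read counts per library, scaled with the TMM method to what they call CPM, and 1 read was worth 0.0472 CPM in shNRP2 and 0.0487 CPM in shControl. Counting intervals are exact conditional binomial (Clopper-Pearson) 95% intervals of the CPM ratio and cover counting error only. NRP2 itself had 7 reads in shNRP2 and 20 in shControl, 0.330 and 0.974 CPM, a ratio of 0.339 (0.121 to 0.835). That is below the average of 1 CPM asked of the genes compared further on, so the ratio rests on few reads. All 8 identity markers of the line were found, and by the threshold given further on 2 of them were higher and 1 lower. HOXB13 was at 486 CPM in shNRP2 and 511 CPM in shControl, and KRT18 at 420 and 368 CPM. CDH1 was higher, at 788 CPM in shNRP2 and 529 CPM in shControl, as was KRT8, at 616 and 457 CPM, and FOXA1 was lower, at 302 and 453 CPM. The 14 markers of other cell types summed to 50.9 CPM in shNRP2 and 57.9 CPM in shControl, COL1A1 made up most of both sums, and DCN and KRT5 had 0 reads in both, so 3 reads would allow 0.141 and 0.146 CPM. The part of both marker lists in the results was not tested.

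A sequence feature of the gene starts is given first, as a description. The core of the binding motif of ETS transcription factors, CCGGAAG on either strand, was looked for in the 250 bases before the gene start in RefSeq (build GRCh38.p14), which were found for 62 of the 70 members compared. It was present in 7 of 11 snRNP polypeptide genes and in 6 of 8 SF3A and SF3B genes. Only a few windows of the other families held it, namely 3 of 21 hnRNP genes, 2 of 10 SR protein genes, 2 of 9 PRPF genes and 1 of 3 U2AF genes. For the 13 snRNP and SF3 genes with the core, the site nearest the gene start is shown, because these families held it most often, with up to 10 bases on either side, read on the strand that gives the core, which is in capitals.
SF3A1 (chr22:30356927-30356953, minus strand): ggggacggtcCCGGAAGtgcgccagtc
SF3A2 (chr19:2236805-2236831, plus strand): ctcatttgccCCGGAAGtgctttcttt
SF3A3 (chr1:37990074-37990100, plus strand): tccgcgagtgCCGGAAGtgccccggga
SF3B2 (chr11:66052340-66052366, minus strand): cgcgaccaacCCGGAAGctggggccag
SF3B4 (chr1:149927813-149927839, minus strand): cgtcttcgccCCGGAAGtggaagtcgt
SF3B6 (chr2:24076329-24076355, plus strand): ccaggacccgCCGGAAGctgttacagc
SNRPA1 (chr15:101295345-101295371, plus strand): ggcgttcttgCCGGAAGtcgtggcgcg
SNRPB (chr20:2470814-2470840, minus strand): gtgagctggaCCGGAAGtaggtttcta
SNRPB2 (chr20:16729994-16730020, minus strand): gagccaggcaCCGGAAGcaacgtagcc
SNRPC (chr6:34757284-34757310, plus strand): atacgctcttCCGGAAGcaccgacaaa
SNRPD2 (chr19:45692363-45692389, plus strand): ctgcctacatCCGGAAGgggcatggac
SNRPE (chr1:203861597-203861622, plus strand): ttctttattCCGGAAGttgctctcag
SNRPG (chr2:70293492-70293518, plus strand): cgacctcggaCCGGAAGaagaaatgaa

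In all, 33.9% of the members' windows held the ETS core, against 16.0% of the windows of 9940 compared genes. It stood in 18.3% of the windows of 4091 genes averaging 50 CPM or more and in 8.82% of all 27305 windows in the table. In 37 of the 62 windows some bases also belong to an annotated transcript of the same gene, so the RefSeq start is not the only start there. Every window whose site is printed above is among these 37. The share with the ETS core was 8%, or 2 of 25, in the members' windows free of such transcript sequence. No like share was taken for other genes. Among the members, the median log2 change was 0.05 with the core and -0.08 without it, and among all compared genes it was 0.01 with and 0.04 without. Among 7 other motifs searched on both strands, the GC box GGGCGG stood in 59.7% of the members' windows against 68.0% of those of compared genes, and the CCAAT box in 43.5% against 35.4%. The motif ACGTG, the core bound by hypoxia-inducible factors, which overlaps the E-box CACGTG, stood in 35.5% against 23.8%, and CACGTG itself in 11.3% against 9.06%. TATAAA was in 9.68% against 4.83%, and the cores of NRF1 and YY1 motifs in 0 of the members' windows against 2.00% and 0.402%. A match of letters is not a measured binding site.

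Splicing factor genes differed little between the libraries, and the few larger differences were mostly towards lower values in shNRP2. Of the 75 members, 70 averaged 1 CPM or more over both libraries and were compared. The scale is log2((shNRP2 CPM + 1)/(shControl CPM + 1)), with a threshold of 0.32 in either direction for a gene to count as higher or lower, and it understates the change of low genes. On this scale 8 members were lower, HNRNPH1, SRSF1, PRPF3, PRPF39, PRPF38B, HNRNPH3, SNRPE and SRSF6, against a background of 12.1% lower among 13316 genes, and 1 member, SF3B6, was higher, against a background of 15.1%. The 8 lower members are 11.4% of the 70, near the background, and the 1 higher member is 1.43%. Among genes averaging 50 CPM or more, where 64 members lie and counting error is small, 7 members (10.9%) were lower against 5.44% of 5114 genes, and 1 (1.56%) was higher against 9.15%. With both libraries set to equal totals, 13 members were lower and 0 higher, against 2312 (17.4%) and 1491 (11.2%) of all genes compared. With quantile normalization 14 members were lower and 1 higher, against 1890 (14.2%) and 1761 (13.2%) of all genes compared.

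The median log2 change of the members was -0.04, and 42 of 70 lay below 0 (60.0%), against a median of 0.03 and 45.9% below 0 for all genes compared. Their spread was narrow, with a standard deviation across genes of 0.20 against 0.37 for all genes compared and 0.26 for those averaging 50 CPM or more. No member reached 1.5-fold in either direction, against backgrounds of 5.78% higher and 3.57% lower, nor 2-fold, against 1.46% and 0.526%. An exact conditional binomial test on the reads was adjusted by the Benjamini-Hochberg method over all genes compared. At an adjusted p-value below 0.05 it called 30 members lower and 18 higher, against backgrounds of 22% and 30.2% of genes, or 52.2% in both directions. The test compares these 2 libraries, not the conditions. It asks for no minimum fold, so genes with more reads are called more easily. Of the 70 members 64 averaged 50 CPM or more, against 5114 of 13316 genes. Neither these backgrounds nor those at 1.5-fold and 2-fold are therefore matched for reads. The members held 1.74% of the shNRP2 reads and 1.91% of the shControl reads.

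**Figure D1:**
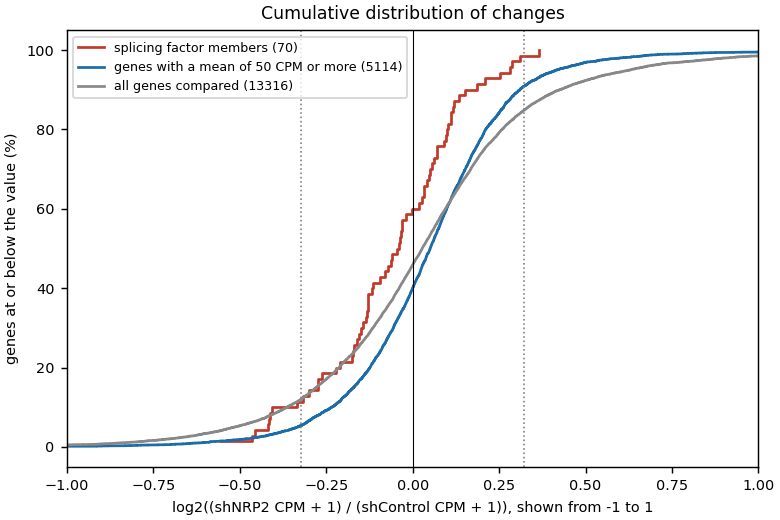
Cumulative share of genes (%) against the log2 change of shNRP2 over shControl, for the 70 members, for 5114 genes averaging 50 CPM or more and for 13316 genes compared, with dotted lines at the threshold of 0.32 and the axis limited to changes between -1 and 1. The members' curve reaches its middle at -0.04, left of 0.05 for the genes averaging 50 CPM or more and of 0.03 for all genes compared, and ends at 0.37.

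Of 11 SR protein genes compared, 2 (18.2%) were counted as lower and 0 as higher, against 12.1% and 15.1% of all genes compared. SRSF1, the prototype SR protein and a splicing factor with known oncogenic activity, had 333 CPM in shNRP2, against 461 CPM in shControl, 1.38-fold lower (1.34 to 1.43). SRSF6, which regulates alternative exons, had 185 CPM in shNRP2 and 234 CPM in shControl, 1.26-fold lower (1.21 to 1.32), and was just past the threshold.

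SRSF3, a small SR protein that also links splicing to mRNA export, had 333 CPM in shNRP2 and 403 CPM in shControl, a ratio of 0.826 (0.800 to 0.853). Its close relative SRSF7 had 125 CPM in shNRP2 and 145 CPM in shControl, 1.17-fold lower (1.11 to 1.23). Both lay between the thresholds, although their counting intervals did not include equality, and SRSF3 counted as lower with equal totals (-0.36) and with quantile normalization (-0.36). SRSF2, which binds exonic enhancers, stood at 316 and 338 CPM in shNRP2 and shControl, SRSF11 at 152 and 167 CPM, and SRSF10, which can act as a repressor, at 112 and 117 CPM with an interval that included equality.

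Above equality, but short of the threshold, SRSF5 had 133 CPM in shNRP2 and 107 CPM in shControl, 1.24-fold higher (1.17 to 1.31). SRSF9 had 436 CPM in shNRP2 and 357 CPM in shControl, 1.22-fold higher (1.18 to 1.26). SRSF8 stood at 140 and 118 CPM in shNRP2 and shControl, and SRSF4 at 122 and 107 CPM. In all, 4 SR protein genes lay above equality and 7 below, with a standard deviation across genes of 0.27 and a median log2 change of -0.10. The summed level of the 11 was 2388 CPM in shNRP2 and 2556 CPM in shControl, a difference of -6.57%. The sum of all genes compared differed by 5.80%, so such differences depend on the scaling. SRSF12, a relative of SRSF10, had 17 reads in shNRP2 and 15 in shControl and was not compared.

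**Figure D2:**
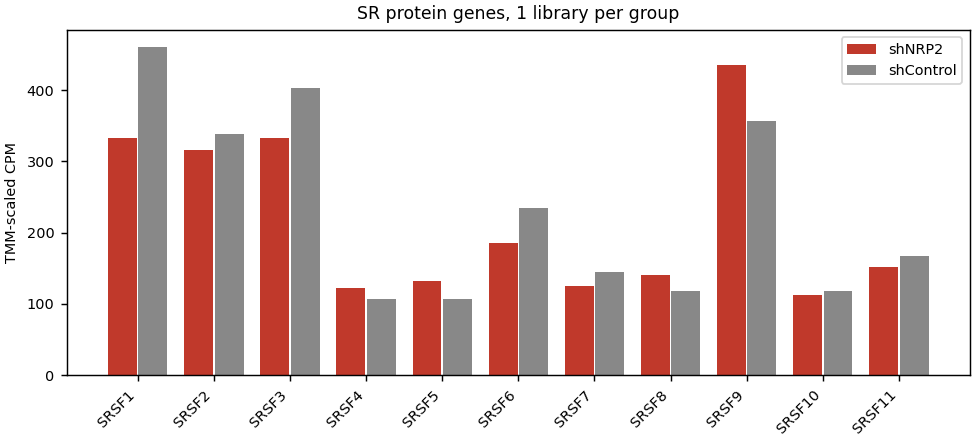
Bars give the TMM-scaled CPM of the 11 compared SR protein genes in the shNRP2 library (left bar) and the shControl library (right bar), 1 library each and so with no error bar. SRSF1 stands at 333 against 461 CPM and SRSF9 at 436 against 357 CPM.

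Both hnRNP genes counted as lower belong to the H group. HNRNPH1, which binds runs of guanines in exons and introns, had 282 CPM in shNRP2 and 415 CPM in shControl, 1.47-fold lower (1.42 to 1.52), which was the largest change of any member. HNRNPH3 had 143 CPM in shNRP2 and 190 CPM in shControl, 1.33-fold lower (1.27 to 1.40). Their paralogs lay nearer to equality, a difference that could not be tested with 1 library per group. HNRNPH2 stood at 97.7 CPM in shNRP2 and 100.2 CPM in shControl, with a ratio of 0.975 (0.917 to 1.04), and HNRNPF at 533 and 499 CPM, with a ratio of 1.07 (1.04 to 1.10). HNRNPH2 overlaps a readthrough model with RPL36A, and paralogs this alike can exchange reads. The other 20 of the 22 hnRNP genes compared lay between the thresholds, and 0 were counted as higher. The 2 lower genes are 9.09% of the 22, and of all genes compared 12.1% were lower and 15.1% higher.

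HNRNPA1, which represses exons in competition with SR proteins, had 2041 CPM in shNRP2 and 1995 CPM in shControl, a ratio of 1.02 (1.01 to 1.04). It has listed copies, and HNRNPA1 with HNRNPA1L2 and its pseudogenes summed to 2084 CPM in shNRP2 and 2040 CPM in shControl, so the copies changed little in this value. Its partner HNRNPA2B1 had 1294 CPM in shNRP2 and 1428 CPM in shControl, 1.10-fold lower (1.09 to 1.12). HNRNPA3 was at 528 and 487 CPM in shNRP2 and shControl, and HNRNPA0 at 285 and 313 CPM. The A and B group thus held values on both sides of equality, all of them between the thresholds. With quantile normalization HNRNPA2B1 counted as lower (-0.38), and the sign of HNRNPA1 turned negative in that setting and with equal totals.

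HNRNPU, a nuclear scaffold protein, had 860 CPM in shNRP2 and 995 CPM in shControl, 1.16-fold lower (1.13 to 1.18). It overlaps the antisense gene HNRNPU-AS1, which had 8.58 and 9.79 CPM, and reads of the 2 strands may not be told apart in these tables. Its relative HNRNPUL1 had 208 CPM in shNRP2 and 257 CPM in shControl, 1.23-fold lower (1.18 to 1.28). HNRNPUL2 had 104 CPM in shNRP2 and 126 CPM in shControl, but the readthrough model HNRNPUL2-BSCL2 went the other way, with 191 and 174 CPM, so both are uncertain. The 3 models HNRNPUL2, HNRNPUL2-BSCL2 and BSCL2 together had 326 CPM in shNRP2 and 337 CPM in shControl, a ratio of 0.970 (0.938 to 1.00).

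HNRNPC, which binds uridine tracts, had 602 CPM in shNRP2 and 674 CPM in shControl, 1.12-fold lower (1.09 to 1.15). HNRNPR had 248 and 276 CPM in shNRP2 and shControl. HNRNPL, which binds CA-rich sequence, had 574 CPM in shNRP2 and 536 CPM in shControl, and its paralog HNRNPLL 60.4 and 55.5 CPM. HNRNPK, a binder of cytosine runs, stood at 941 and 923 CPM, HNRNPM at 569 and 551 CPM, and HNRNPD, which also binds AU-rich elements of unstable mRNAs, at 503 and 479 CPM. HNRNPDL and HNRNPAB had intervals that included equality, at 217 and 220 CPM and at 147 and 150 CPM. HNRNPA1L2 had 121 reads in each library, HNRNPCL1 had 2 reads in shNRP2 and 0 in shControl, and HNRNPCL2, HNRNPCL3 and HNRNPCL4 had 0 reads in both. The median log2 change of the family was -0.03, and its summed level was 10434 CPM in shNRP2 and 10849 CPM in shControl.

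The SF3A and SF3B subunits, which anchor the U2 snRNP at the branch site, included the single member counted as higher. That is 1 of 9 (11.1%), against 15.1% of all genes compared, and 0 were lower, against 12.1%. SF3B6, a small subunit, had 88.5 CPM in shNRP2 and 68.5 CPM in shControl, 1.29-fold higher (1.21 to 1.39). With equal library totals its log2 change was 0.29, below the threshold, against 0.37 as scaled by the authors. SF3B2 had 465 CPM in shNRP2 and 402 CPM in shControl, 1.16-fold higher (1.12 to 1.19).

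The other subunits were closer to equality. SF3B1, the large subunit that holds the branch helix, had 326 CPM in shNRP2 and 317 CPM in shControl, a ratio of 1.03 (0.994 to 1.06). SF3B3 stood at 367 and 397 CPM in shNRP2 and shControl, and SF3B4 at 172 and 194 CPM, 1.13-fold lower (1.08 to 1.18). SF3B5 had 111 and 117 CPM. The 3 SF3A subunits had ratios between 0.960 and 0.979, with 230 and 235 CPM for SF3A1, 115 and 120 CPM for SF3A2 and 168 and 173 CPM for SF3A3. The family's sum was 2041 CPM in shNRP2 and 2023 CPM in shControl.

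Among the 12 snRNP polypeptides compared, SNRPE was the 1 gene counted as lower (8.33%) and 0 were counted as higher. Of all genes compared, 12.1% were lower and 15.1% higher. SNRPE encodes a protein of the Sm ring, the ring of 7 proteins that encircles U1, U2, U4 and U5 RNA. SNRPE had 106 CPM in shNRP2 and 140 CPM in shControl, 1.33-fold lower (1.26 to 1.41). The other 6 ring genes had ratios between 0.913 and 1.11. SNRPD1 was at 99.1 and 89.2 CPM in shNRP2 and shControl, SNRPF at 106 and 116 CPM, SNRPB at 333 and 325 CPM, and SNRPG at 64.9 CPM in both. SNRPD3 was at 252 and 249 CPM and SNRPD2, which has a listed pseudogene, at 157 and 152 CPM.

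The genes of proteins found in a single particle lay between the thresholds. For U1, SNRPA was at 99.5 CPM in shNRP2 and 92.1 CPM in shControl, and SNRPC at 91.0 and 87.5 CPM. For U2, SNRPA1 was at 107 CPM in shNRP2 and 116 CPM in shControl, and SNRPB2 at 42.5 and 48.0 CPM. SNRPN, an imprinted paralog of SNRPB known from the brain, had 156 CPM in shNRP2 and 128 CPM in shControl, 1.22-fold higher (1.16 to 1.28). It shares its transcript with SNURF, which had 157 and 127 CPM, so the reads of the 2 cannot be told apart. The family's median log2 change was 0.03 and turned to -0.05 with equal totals, to -0.00 with the median of all genes at 0 and to -0.03 with quantile normalization, so it has no firm sign.

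The U2AF subunits, which mark the 3' splice site, had a median log2 change of -0.13, and 0 of the 3 passed the threshold. Of all genes compared, 12.1% were lower and 15.1% higher. U2AF2, which binds the polypyrimidine tract, had 417 CPM in shNRP2 and 397 CPM in shControl, a ratio of 1.05 (1.02 to 1.08) whose log2 change turned negative with equal totals and was 0 with quantile normalization. U2AF1, which reads the terminal AG, had 108 CPM in shNRP2 and 120 CPM in shControl, 1.11-fold lower (1.05 to 1.18). U2AF1L4 rested on 85 and 92 reads, and its interval included equality.

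PRPF factors were the family with the lowest sum in shNRP2 relative to shControl, 1852 against 2007 CPM, a difference of -7.71%. For all genes compared the difference was 5.80%. PRPF3, a protein of the U4/U6 particle, had 61.6 CPM in shNRP2 and 84.9 CPM in shControl, 1.38-fold lower (1.28 to 1.48). PRPF39, a U1-associated factor, had 24.5 CPM in shNRP2 and 33.1 CPM in shControl, a ratio of 0.741 (0.660 to 0.832). PRPF38B had 56.3 CPM in shNRP2 and 75.4 CPM in shControl, 1.34-fold lower (1.24 to 1.45). These 3 of 13 (23.1%) were counted as lower, against 12.1% of all genes compared, and 0 as higher, against 15.1%. The difference in share was not tested.

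PRPF4B, a kinase of the tri-snRNP, had 82.0 CPM in shNRP2 and 102 CPM in shControl, a ratio of 0.800 (0.751 to 0.853), and was just short of the threshold on the log2 scale with 1 CPM added. It counted as lower with equal totals (-0.40), with the median of all genes at 0 (-0.35) and with quantile normalization (-0.36). PRPF4, the direct partner of PRPF3 in U4/U6, had 65.5 CPM in shNRP2 and 78.8 CPM in shControl, a ratio of 0.831 (0.773 to 0.893). PRPF31, the third U4/U6 protein among the members, was on the other side of equality, at 83.2 CPM in shNRP2 and 77.5 CPM in shControl. PRPF8, the protein at the centre of the active spliceosome, had 663 and 693 CPM in shNRP2 and shControl, PRPF19, a ubiquitin ligase of the activated complex, 319 and 359 CPM, and PRPF6 184 and 201 CPM. PRPF18, PRPF38A and PRPF40B had intervals that included equality.

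**Figure D3:**
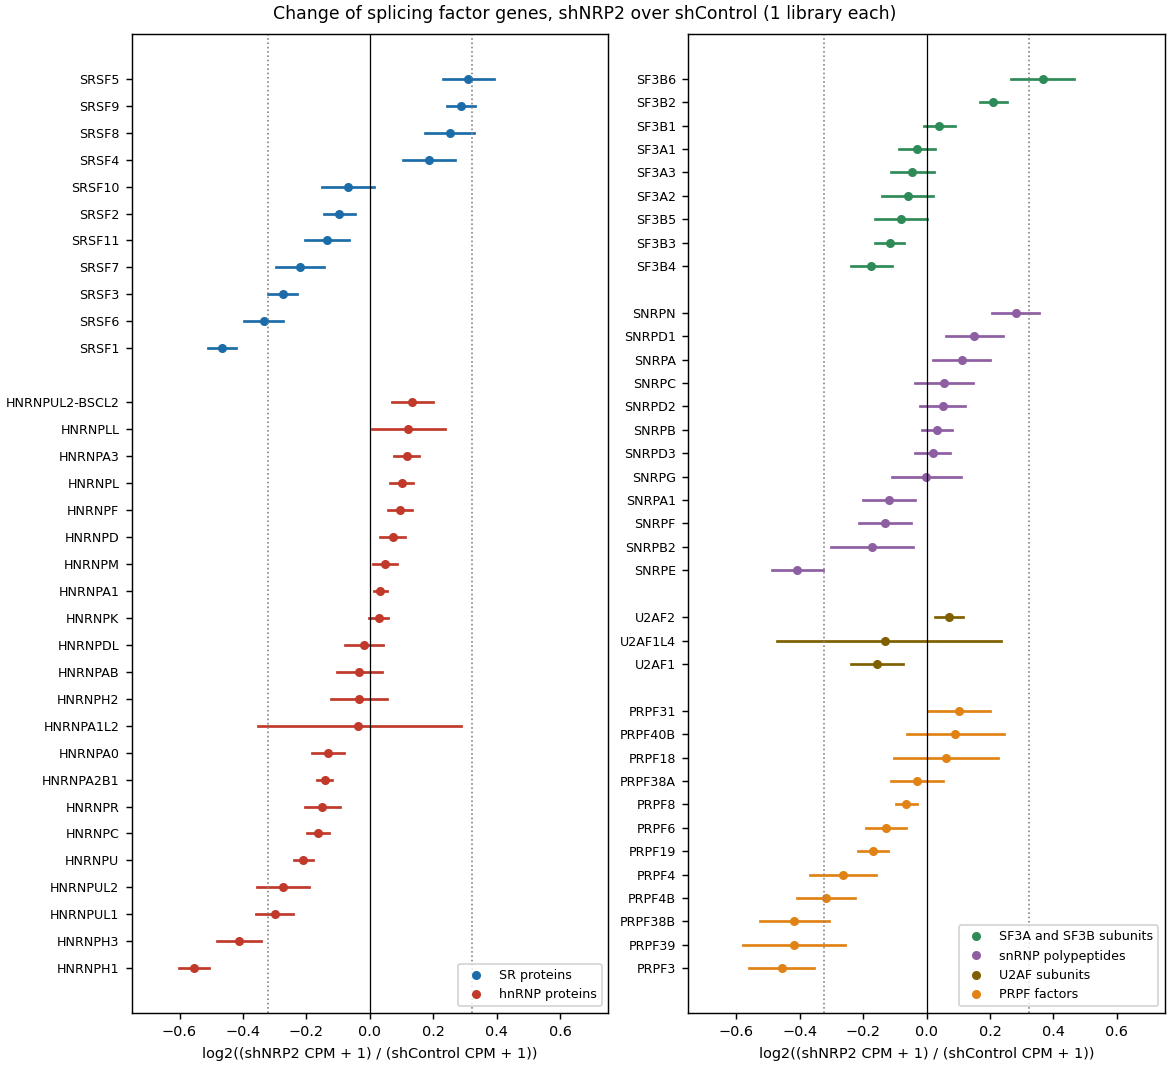
Each point is the log2 change of a compared member (1 PRPF factor is not drawn), shNRP2 over shControl with 1 CPM added to each, grouped by family in colour, and each line is its 95% counting interval from the reads. Dotted lines mark the threshold of 0.32. HNRNPH1 at -0.55 and SRSF1 at -0.47 lie farthest left and SF3B6 at 0.37 farthest right.

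Genes that act on or beside these factors also held a few larger differences. Kinases that phosphorylate SR proteins lay on both sides. CLK1 had 442 reads in shNRP2 and 616 reads in shControl, 1.44-fold lower (1.27 to 1.63). CLK3 had 59.4 CPM in shNRP2 and 40.7 CPM in shControl, 1.46-fold higher (1.34 to 1.60), and SRPK2 99.6 and 75.3 CPM, 1.32-fold higher (1.24 to 1.41). Of 8 genes compared in that list, 2 were higher (25%) and 1 lower (12.5%), with a median log2 change of -0.01, while SRPK1 stood at 125 and 124 CPM. Of all genes compared, 15.1% were higher and 12.1% lower.

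Other hnRNP-type and alternative splicing regulators had 5 lower (17.2%) and 1 higher (3.45%) of 29 compared, with a median of -0.03. For all genes compared the shares were 12.1% lower and 15.1% higher. TIA1, which binds uridine-rich sequence beside 5' splice sites, had 39.7 CPM in shNRP2 and 66.8 CPM in shControl, 1.68-fold lower (1.54 to 1.83). RBMX, also known as hnRNP G, had 172 and 234 CPM, ELAVL1, a stabilizer of AU-rich mRNAs, 148 and 192 CPM, and MBNL3 9.86 and 15.5 CPM. NOVA1, a neuronal splicing regulator, was the higher one, with 68 reads in shNRP2 and 41 in shControl, and it was no longer counted with a pseudocount of 5 CPM or compared with a filter at 5 CPM.

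The remaining lists had few members past the threshold, which 12.1% of all genes compared passed as lower and 15.1% as higher. Of 30 other U snRNP and branch site proteins, TXNL4A of the U5 particle was higher, at 172 CPM in shNRP2 and 134 CPM in shControl, and the U5 helicase DDX23 lower, at 142 and 179 CPM. DDX23 was barely past the threshold and no longer counted with a pseudocount of 5 CPM. Of 26 proteins of the Prp19 complex, helicases and step factors, DDX41 was higher, at 123 and 93.2 CPM, and CWC25 lower, at 10.2 and 14.6 CPM. Among 25 SR-related proteins, CCNL2, a cyclin, was lower, at 76.0 and 109 CPM, with 0 higher, and RSRC2 had the highest value, at 98.3 and 86.1 CPM.

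Genes of the SMN complex and of Sm protein methylation, which build the Sm ring, had 0 of 13 past the threshold, from DDX20 at 21.4 CPM in shNRP2 and 23.7 CPM in shControl to GEMIN7 at 16.5 and 14.0 CPM. SMN1 and its near-identical copy SMN2 share reads, and all of them were listed under SMN1. Of 9 genes listed for the minor spliceosome, ZRSR2, which reads its 3' splice site, was lower, at 4.67 CPM in shNRP2 and 6.77 CPM in shControl (99 and 139 reads), but not with a pseudocount of 5 CPM. Also lower was ZCCHC8, at 20.3 and 28.2 CPM, which is known as an adaptor of the nuclear exosome and not of the minor spliceosome. ZCRB1 had the highest value there, 88.0 and 75.4 CPM. Of 15 genes of the exon junction complex and nonsense-mediated decay, SMG9 was lower, at 12.3 and 16.8 CPM, 0 were higher, and SMG1 had the highest value, 130 and 120 CPM. Against backgrounds of 12.1% lower and 15.1% higher, none of these counts was tested. With equal totals 5 of the 30 other U snRNP proteins, 3 of the 25 SR-related proteins and 4 of the 15 exon junction and decay genes were lower, against 17.4% of all genes compared. In that setting 1 of the 8 kinase and import genes was higher, against 11.2%, and TXNL4A, DDX41 and SRPK2 were no longer counted as higher.

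**Figure D4:**
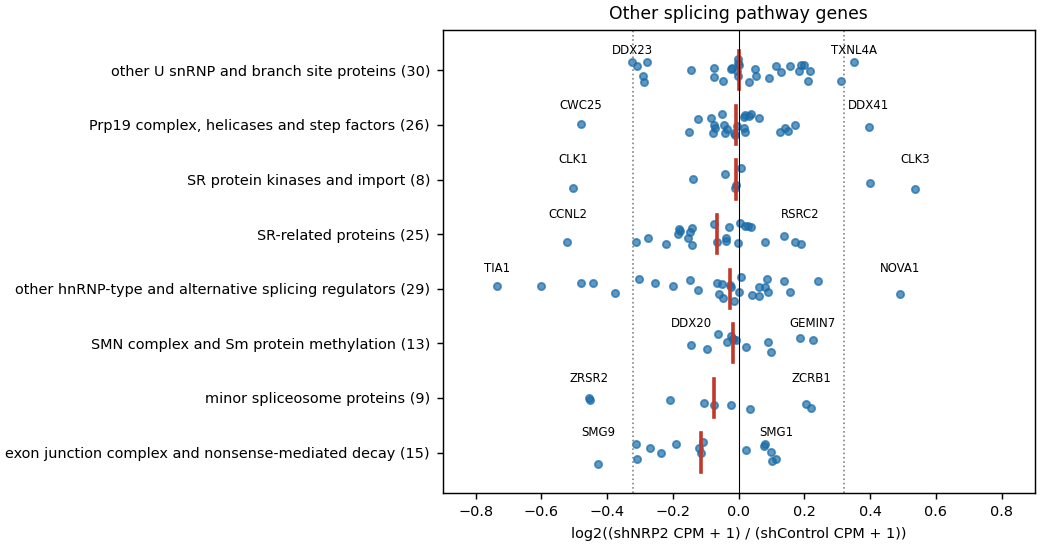
Each point is the log2 change of a gene of 8 lists of other splicing genes, shNRP2 over shControl, the red bar is the list's median, the number compared is in brackets and dotted lines mark the threshold of 0.32. The names mark the lowest and the highest gene of each list, from TIA1 at -0.74 to CLK3 at 0.54, and the medians lie between -0.11 and -0.00.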

How the data were processed

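RNA was sequenced from 1 shNRP2 and 1 shControl library. The deposited signal per gene symbol is TMM-normalized CPM in the words of the authors' file names. Build hg19 and, with no order or role, edgeR, RSEM 1.2.15, Bowtie2 2.1.0 and bcl2fastq 2.17 are named in the submitters' processing notes. The sources used here do not give the annotation, the filters or the strand setting. All values (100%) were whole multiples of the value of 1 read within 0.01 read, so read counts were recovered from the deposited signal. The columns sum to 1084413 in shNRP2 and 1024943 in shControl, so the unit was treated as a scaled signal where the design had assumed plain CPM. Of 26475 rows, 28 with symbols turned into dates (0.184% and 0.181% of reads) were left out.

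Genes averaging 1 CPM or more were compared with a pseudocount of 1 CPM and a threshold of 0.32 on the log2 scale. An exact binomial test on the recovered reads called 6954 of 13316 genes (52.2%). That test and the filter at 50 CPM were added after seeing the data. Intervals used scipy 1.17.1 and were tested on simulated data with counting error only. That test therefore cannot speak to variation between libraries. Promoter windows came from RefSeq by symbol. Alternatives were other pseudocounts, filters, scalings and thresholds. Named were members past the threshold, the 3 most abundant and the 2 highest and lowest changes per family, list extremes, members next to the threshold and NRP2. Other members and the motifs were chosen for the text after their values were seen. The members and lists were chosen with earlier results of these data known. Some genes are not reported here by name, although the counts and medians include them.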

Additional observations from a re-analysis of the deposited data

How the results depend on the processing

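No paired analysis was possible because each group has 1 library, and for the same reason no library could be left out. With equal library totals the members' median was -0.12, 0 members were higher and 13 lower, and the medians were -0.18 for SR proteins, -0.11 for hnRNP proteins, -0.13 for SF3A and SF3B subunits, -0.055 for snRNP polypeptides and -0.21 for PRPF factors. In the same setting the list medians were -0.081 for other U snRNP proteins, -0.087 for the Prp19 list, -0.089 for SR protein kinases, -0.15 for SR-related proteins, -0.11 for other regulators, -0.10 for the SMN list, -0.15 for the minor spliceosome and -0.19 for the exon junction list. It moves every gene down alike, and the median of all genes compared went to -0.05. With quantile normalization the members' median was -0.12 with 14 members lower, and the medians were -0.11 for hnRNP proteins, -0.21 for PRPF factors, -0.15 for SR-related proteins and -0.19 for the exon junction list; the cause was not tested. At 1.5-fold and at 2-fold, 0 members were higher and 0 lower. The binomial test on reads counted 18 higher and 30 lower, since it asks for no minimum fold. The U2AF median was -0.042 with a filter at 5 CPM, which leaves fewer genes. Pseudocounts of 0.25 and 5 CPM, no filter, filters at 5 and 50 CPM, removing members with copies or overlapping models, and setting the median of all genes to 0 gave 1 higher and 7 to 10 lower members. Over all genes compared in these settings, the share lower ran from 5.44% (filter at 50 CPM) to 13.9% (median of all genes at 0). The share higher ran from 9.15% (filter at 50 CPM) to 16.4% (pseudocount of 0.25 CPM). Of 251 values of single named members under alternatives, 209 stayed on their side of the threshold and, if between the thresholds, moved by no more than their counting error, 3 of them with a change of sign around 0. A further 35 moved by more, 6 newly passed the threshold (PRPF4B, SRSF3 and HNRNPA2B1) and 1 (SF3B6 with equal totals) no longer did. In all, 15 of the 251 values changed sign, and none of these was past the threshold as scaled by the authors. Among them were HNRNPK, SF3B1, SNRPB, SNRPD2 and SNRPD3 with equal totals. The 251 values cover 36 named members only. HNRNPUL1 (-0.30), HNRNPUL2 (-0.27) and PRPF4 (-0.26), short of the threshold as scaled by the authors, were not followed singly. The counts of lower members cover every member compared. With a pseudocount of 5 CPM, DDX23, ZRSR2 and NOVA1 were no longer counted. Depth limits U2AF1L4, HNRNPA1L2, SRSF12 and NRP2, which rest on few reads.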
